A study of Homo sapiens with 6 samples.

Results

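The SR proteins (SRSF genes) and the heterogeneous nuclear ribonucleoproteins (hnRNPs, HNRNP genes) are the main families of RNA-binding proteins that choose splice sites. Members were taken from the deposited table by symbol alone, as SRSF followed by a number or as symbols that start with HNRNP, leaving out pseudogene and antisense symbols. This gave 38 of 27234 genes, 12 SRSF and 26 HNRNP, of which 35 had at least 1 count and 33 had enough counts to be tested (12 SRSF and 21 HNRNP). The cells were A673, an established human line of Ewing sarcoma with the EWS-FLI1 fusion, grown in DME medium with fetal bovine serum. They were transfected with an siRNA to FLI1 (the siFLI1 group, 3 libraries) or with a scrambled control (the siControl group, 3 libraries) and harvested after 48 h. Both groups carry the fusion, all libraries come from 1 cell line, and the labels give 1 siRNA-FLI1 reagent without its target site. The study is about ETS proteins and the glucocorticoid receptor, and siFLI1 against siControl is its 1 comparison.

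SR proteins bind exonic enhancers through RNA recognition motifs and recruit the U1 and U2 particles through a tail rich in arginine and serine, which SRPK and CLK kinases phosphorylate. Many hnRNPs bind exonic and intronic silencers and work against nearby SR proteins, the classic pair being hnRNP A1 against SRSF1. Many members of both families hold down their own levels by splicing exons with early stop codons into their transcripts, which sends these transcripts to nonsense-mediated decay. EWSR1, the amino-terminal partner in EWS-FLI1, is an RNA-binding protein, and the fusion protein is known to contact splicing factors. The libraries read 3' ends and the table counts each gene as a whole, so the values below are transcript levels of splicing factors and not the splicing that they direct.

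Counts assigned to genes ran from 417145 in siFLI1 replicate 3 to 1893606 in siFLI1 replicate 1. In siFLI1 replicate 3 they were 10.1% of the total in the column header, where the other 5 libraries had 41.2% to 61.0%, and this library was also the outermost on the first principal component. Levels are given as CPM, counts scaled to library size, after normalisation by the trimmed mean of M values (TMM), and differences are log2 fold changes of siFLI1 over siControl with their standard errors (SE). FLI1 was at 19.0, 42.5 and 24.1 CPM (siFLI1) against 63.0, 69.1 and 62.4 CPM (siControl), from 34, 64 and 9 and 117, 118 and 73 counts. All siFLI1 libraries were lower, and the mean was 44.0% of the siControl mean, a log2 difference of −1.16 ± 0.36 that did not pass the threshold (adjusted p = 0.170 by edgeR's quasi-likelihood test). The 3' end of FLI1 is shared by the fusion transcript and unfused FLI1, so its reads cannot be assigned to either, and in bulk RNA fewer cells with a transcript and less of it per cell cannot be told apart. All 10 Ewing sarcoma markers listed (among them CD99, NKX2-2 and STEAP1) had counts, with a summed level of 1328 to 2074 CPM in siFLI1 and 2888 to 4077 CPM in siControl. CCND1 was the largest part of these sums, with means of 894 CPM (siFLI1) and 2042 CPM (siControl). The means of CD99 were 83.0 and 101 CPM and those of EWSR1 134 and 137 CPM, in the same order. Of 6 leukocyte markers 5 had counts, summing to 69.9 to 88.4 CPM in siFLI1 and 49.8 to 65.8 CPM in siControl. Most came from CD68 (489 counts over all libraries), and CD3E was at 0. PTPRC (22 counts) averaged 14.3 CPM (siFLI1) against 1.71 CPM (siControl). All its siFLI1 counts were in siFLI1 replicate 3, the library with the fewest counts, and all its siControl counts in siControl replicate 3. Epithelial markers summed to at most 8.03 CPM in any library (EPCAM 11 and CDH1 2 counts, KRT5 and KRT14 at 0) and endothelial markers to at most 5.36 CPM, and the part of these markers in the results was not tested.

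None of the 33 tested members passed an adjusted p of 0.05. The largest differences were in HNRNPA1, HNRNPL and HNRNPM among the lower members and in SRSF12, the member with the fewest counts of those tested, among the higher. The count of 0 held in edgeR, DESeq2 and limma-voom, while 137 of the 9420 genes tested (1.45%) passed in edgeR. At an unadjusted p below 0.05, 1 member was lower (HNRNPA1) and 0 were higher, against 4.13% and 6.62% of all genes tested, and DESeq2 and limma-voom each gave the same single member. Adjusted p of the members in edgeR ran from 0.277 to 0.999. Fold changes were negative for 24 of the 33 members (72.7%), 8 of 12 SRSF and 16 of 21 HNRNP, against 49.6% of all genes tested. This number depended on the libraries and the scaling, with 20 of 33 negative without siControl replicate 2 and 27 of 33 under total counts. The median log2 fold change was −0.13 for SRSF and −0.11 for HNRNP genes, against 0.0052 for all genes tested. With scaling by total counts, which moves the median of all genes to −0.12, these medians were −0.26 and −0.21. A change of scaling moves all genes by nearly the same amount. The distance of these medians from the median of all genes therefore stays similar by construction and tests nothing. In 27 of the 33 members the whole 95% interval lay within a 2-fold change in either direction, and in 1 of these, HNRNPC, within a 1.5-fold change.

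**Figure D1:**
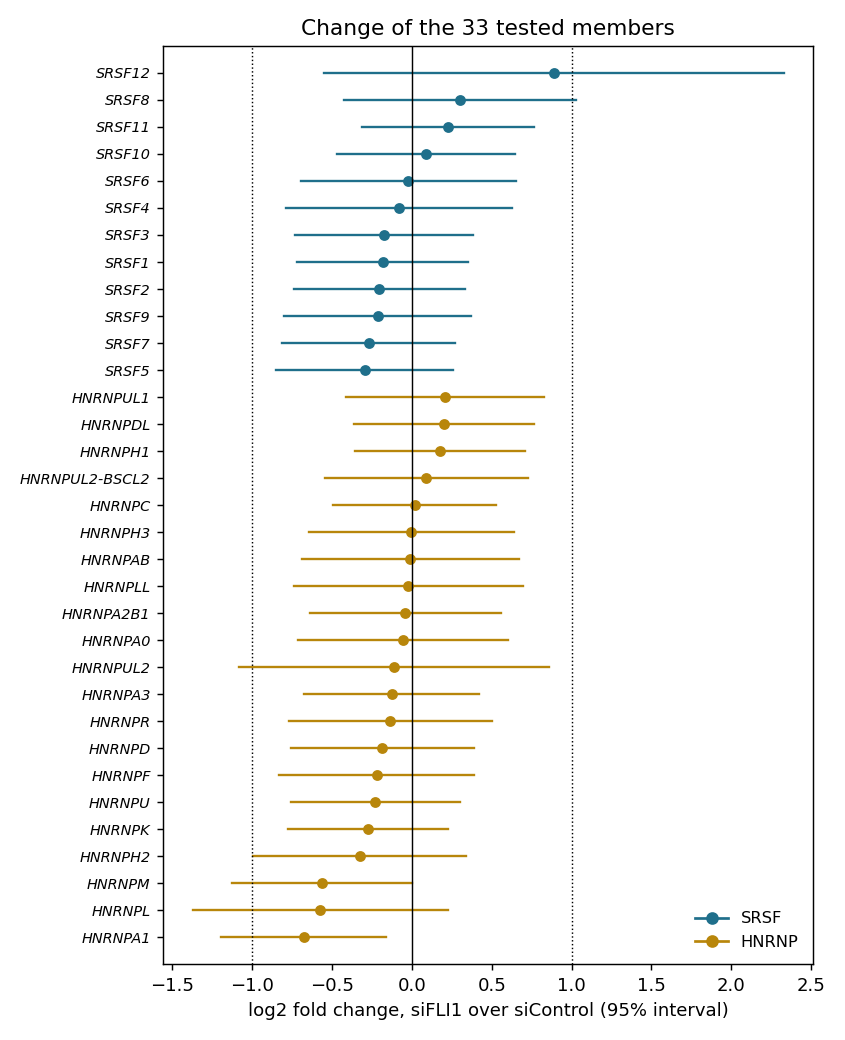
Log2 fold change of siFLI1 over siControl for the 33 tested members (x axis, points with 95% intervals), SRSF genes in blue and HNRNP genes in gold, with dotted lines at a 2-fold change. The interval of HNRNPA1, from −1.19 to −0.16, is the only one that does not reach 0.

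**Figure D2:**
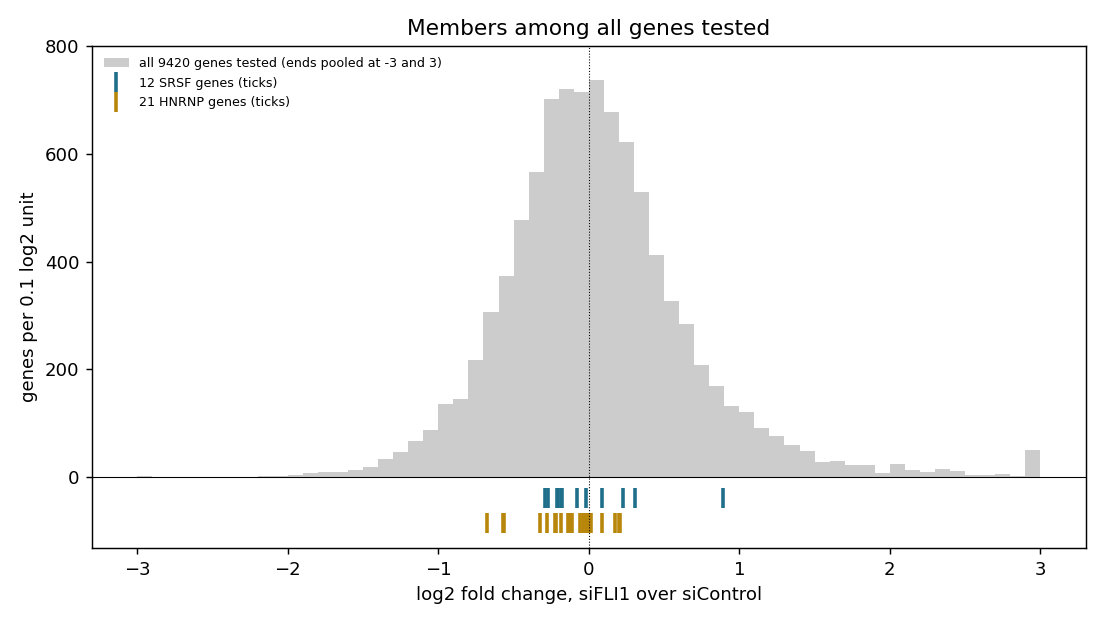
Histogram of log2 fold changes of all 9420 genes tested (grey, genes per bin of 0.1), with the 12 SRSF genes (blue) and the 21 HNRNP genes (gold) as ticks under it. All members but SRSF12 lie between −0.68 and 0.30, inside the bulk of the genes.

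Among SR proteins the 4 members with the highest mean CPM were SRSF2, SRSF7, SRSF3 and SRSF11. SRSF2, which recognises exonic enhancers and also acts in transcription elongation (row NM_001195427, chromosome 17, 76734115 to 76737411, minus strand, hg38), was at 465, 525 and 552 CPM in libraries 1, 2 and 3 of siFLI1, against 631, 589.7 and 553 CPM in libraries 1, 2 and 3 of siControl. All siFLI1 libraries lay below all siControl libraries; siFLI1 replicate 3 came close to siControl replicate 3. This is a log2 fold change of −0.20 ± 0.25 (SE; 95% interval −0.74 to 0.33; edgeR adjusted p = 0.850). SRSF7, which together with SRSF3 links splicing to mRNA export, was at 382, 347 and 361 CPM (siFLI1) against 355, 514 and 446 CPM (siControl). The siFLI1 values sat close together near the low end of the wider siControl range, with a log2 fold change of −0.27 ± 0.25. SRSF3, the smallest SR protein, was at 333, 398 and 383 CPM (siFLI1) against 322, 442 and 494 CPM (siControl), and the groups overlapped, with a log2 fold change of −0.18 ± 0.26. SRSF11, the SR-like protein p54, was at 285, 374 and 345 CPM (siFLI1) against 237, 333 and 287 CPM (siControl). Here the groups overlapped too, for a change on the log2 scale of 0.23 ± 0.25 (95% interval −0.31 to 0.77).

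**Figure D3:**
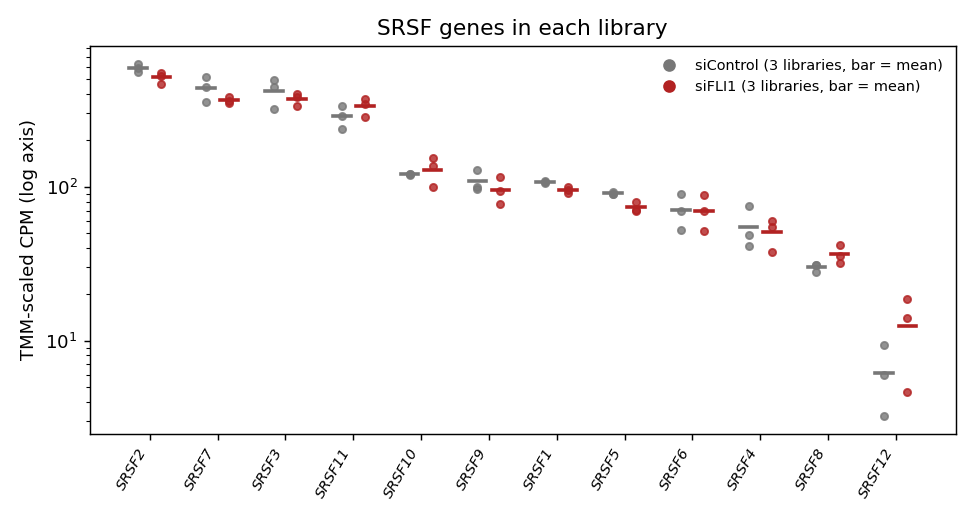
The 12 SRSF genes (x axis) with the TMM-scaled CPM of every library on a log scale (y axis), grey for siControl, red for siFLI1, with the mean of 3 as a bar; SRSF1, SRSF2 and SRSF5 have all siFLI1 points below the siControl points and SRSF8 has them above.

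The groups did not overlap in 4 SRSF genes, 3 with siFLI1 below (SRSF1, SRSF2 and SRSF5) and 1 with siFLI1 above (SRSF8), where 7.71% of all genes tested had siFLI1 below and 8.93% above. SRSF1, the founding member of the family, formerly ASF/SF2 (row NM_006924, chromosome 17, 58000919 to 58007346, minus strand), was at 90.6, 94.998 and 99.1 CPM (siFLI1) against 106, 107 and 109 CPM (siControl). The siFLI1 values were more spread than the siControl values, and the one nearest to siControl, in replicate 3, came from 37 counts. The mean in siFLI1 was 88.4% of that in siControl, a log2 fold change of −0.18 ± 0.25 (95% interval −0.72 to 0.35, edgeR adjusted p = 0.866). SRSF5 (row NM_006925, chromosome 14, 69767087 to 69772005, plus strand) was at 71.0, 79.7 and 69.6 CPM (siFLI1) against 92.6, 89.0 and 89.7 CPM (siControl), with a log2 fold change of −0.29 ± 0.26 (edgeR adjusted p = 0.765), the most negative of the family. SRSF8, an intronless gene that arose by retrotransposition of SRSF2, was at 41.9, 35.2 and 32.1 CPM (siFLI1) against 28.0, 31.0 and 30.8 CPM (siControl), with a log2 fold change of 0.30 ± 0.34. Its value in siFLI1 replicate 3 came from 12 counts and lay close to that in siControl replicate 2. The 95% intervals of all 4 genes included 0. The SRSF9, SRSF10, SRSF4 and SRSF6 groups overlapped, with log2 fold changes of −0.21 ± 0.27, 0.090 ± 0.26, −0.080 ± 0.33 and −0.021 ± 0.31, in that order. SRSF12, a relative of SRSF10 that represses splicing, had 25, 7 and 7 counts in siFLI1 replicates 1, 2 and 3 and 6, 16 and 7 counts in siControl. Its log2 fold change of 0.89 ± 0.67 had a 95% interval from −0.55 to 2.33, so that at this depth a 4-fold rise could not be told from no change.

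In the hnRNP A/B group, whose members bind UAG-like silencers, HNRNPA1 had the most negative fold change. In hg38, HNRNPA1 is given as row NM_031157, chromosome 12, 54280690 to 54285246, plus strand. It was measured at 182, 197 and 149.9 CPM in libraries 1, 2 and 3 of siFLI1, against 268, 281 and 303 CPM in libraries 1, 2 and 3 of siControl, from 325, 297 and 56 and 497, 480 and 355 counts. Every siFLI1 library was below every siControl library, and the means were 176 ± 24.1 CPM in siFLI1 and 284 ± 18.1 CPM in siControl (SD, n = 3). The log2 fold change of −0.68 ± 0.24 (SE; 95% interval −1.19 to −0.16) corresponds to a 1.60-fold lower level, and it did not pass over all genes (edgeR adjusted p = 0.277, from 0.181 to 0.583 over 15 other settings). Without any 1 library the log2 fold change ran from −0.77 to −0.58. GENCODE release 29 names 74 pseudogenes of HNRNPA1, more than of any other member (HNRNPA3 has 16), so its reads could be split between near-identical copies. The HNRNPA1P10 row had 6, 10 and 1 counts in siFLI1 and 13, 9 and 2 in siControl, and the HNRNPA1P33 row had 0 in all 6 libraries.

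HNRNPA2B1, a close relative of HNRNPA1, ranked first of the HNRNP genes in mean CPM. It was at 898, 1101 and 1269 CPM (siFLI1) against 988, 1242 and 1126 CPM (siControl), with overlapping groups and a log2 fold change of −0.040 ± 0.28 (95% interval −0.64 to 0.56). Within a library the HNRNPA1 to HNRNPA2B1 ratio of CPM was 0.202, 0.179 and 0.118 in siFLI1 and 0.271, 0.226 and 0.270 in siControl. The HNRNPA1 to SRSF1 ratio, the antagonist pair, was 2.01, 2.08 and 1.51 in siFLI1 and 2.52, 2.64 and 2.77 in siControl, so that both ratios were lower in all siFLI1 libraries. Both ratios were chosen after the values of HNRNPA1 were seen and carry no test, and neither depends on scaling between libraries. Of the other members of the group, HNRNPA3 was at −0.13 ± 0.26 on the log2 scale, HNRNPA0 at −0.058 ± 0.31 and HNRNPAB at −0.010 ± 0.32. HNRNPAB ranged from 91.5 CPM in siControl replicate 1 to 222 CPM in siControl replicate 2, a spread within 1 group that covers all its siFLI1 values. HNRNPDL, which with HNRNPD (AUF1) binds AU-rich elements, was at 392, 419.9 and 589 CPM (siFLI1) against 360.3, 451 and 401 CPM (siControl). Its groups overlapped, with a log2 fold change of 0.20 ± 0.26, and HNRNPD was at −0.19 ± 0.27.

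**Figure D4:**
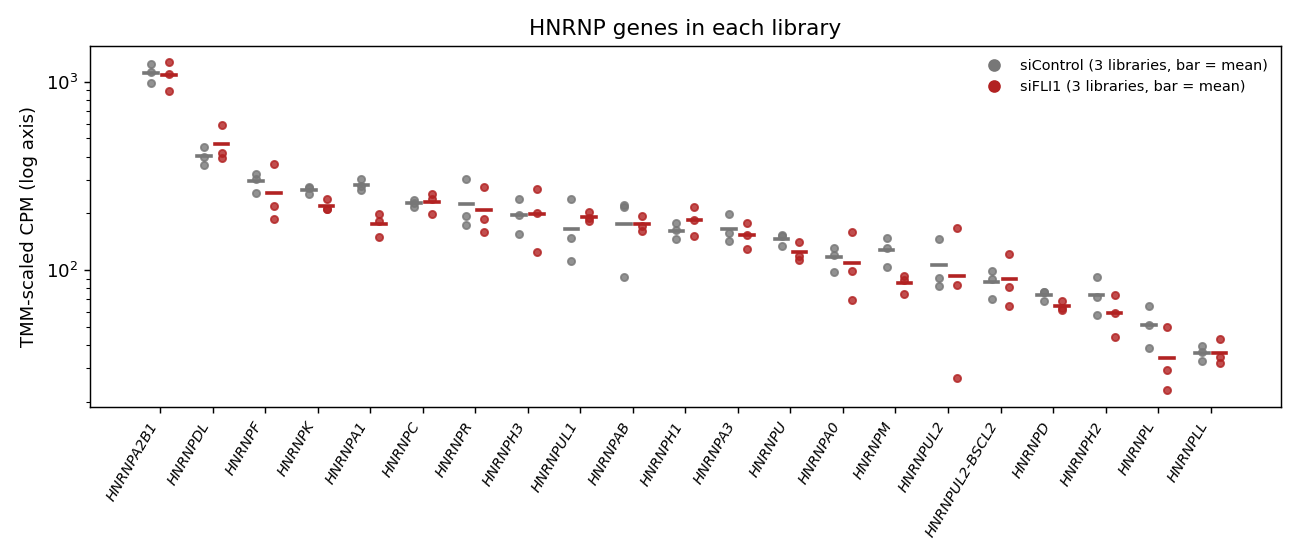
The 21 tested HNRNP genes (x axis) with the TMM-scaled CPM of every library on a log scale (y axis), grey for siControl, red for siFLI1, with the mean of 3 as a bar; HNRNPA1, HNRNPK and HNRNPM have all siFLI1 points below the siControl points, and HNRNPUL2 has the widest siFLI1 spread, from 26.8 to 168 CPM.

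The groups did not overlap in 3 HNRNP genes, all with siFLI1 below (HNRNPA1, HNRNPK and HNRNPM), which is 14.3% of the 21 tested against 7.71% of all genes in that direction. HNRNPM, a regulator of exon choice in the epithelial-mesenchymal switch (row NM_001297418, chromosome 19, 8444828 to 8489118, plus strand), was at 92.8, 88.4 and 75.0 CPM in libraries 1, 2 and 3 of siFLI1, against 104, 148 and 131 CPM in libraries 1, 2 and 3 of siControl. Its mean in siFLI1 was 67.0% of that in siControl, a log2 fold change of −0.56 ± 0.26 (95% interval −1.13 to 0.0037; edgeR adjusted p = 0.470), and it ran from −0.72 to −0.44 without any 1 library. HNRNPK, which binds C-rich RNA and DNA through KH domains (row NM_002140, chromosome 9, 83968083 to 83980782, minus strand), was at 237, 212 and 212 CPM (siFLI1) against 255, 275 and 272 CPM (siControl), and its log2 fold change of −0.28 ± 0.23 was smaller (95% interval −0.78 to 0.22; edgeR adjusted p = 0.754). HNRNPL, which binds CA repeats, had a log2 fold change of −0.57 ± 0.37, near that of HNRNPM, but from 22.9, 49.8 and 29.5 CPM (siFLI1) against 64.1, 50.9 and 38.5 CPM (siControl). Here siFLI1 replicate 2 lay inside the siControl range, and without that library the log2 fold change was −1.01. Over all fits without 1 library the log2 fold change of HNRNPL ran from −1.01 to −0.31. Its paralog HNRNPLL had a log2 fold change of −0.023 ± 0.33. HNRNPC, which binds U tracts as a tetramer and shields cryptic exons, was at 238, 199 and 254 CPM (siFLI1) against 228, 235 and 217 CPM (siControl), with 0.018 ± 0.24 (95% interval −0.49 to 0.53), and its libraries differed little.

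In the F/H group, which binds G tracts, HNRNPF was at 187, 219.9 and 367 CPM (siFLI1) against 325, 305 and 258 CPM (siControl). The highest and the lowest of these 6 values were both siFLI1 libraries, and without replicate 3 of siFLI1 the log2 fold change went from −0.22 ± 0.28 to −0.54. Over all fits without 1 library the log2 fold change of HNRNPF ran from −0.54 to −0.032. HNRNPH1 was at 0.18 ± 0.25, HNRNPH3 at −0.0028 ± 0.30 and HNRNPH2 at −0.33 ± 0.31 on the log2 scale, with overlapping groups. HNRNPH2 lies within the read-through gene RPL36A-HNRNPH2 on the same strand, so their reads could be shared. Among the larger hnRNPs, HNRNPU (SAF-A), which ties RNA to chromatin, had a log2 fold change of −0.23 ± 0.25, HNRNPUL1 of 0.21 ± 0.29 and HNRNPR of −0.14 ± 0.30. HNRNPUL2 was at 168, 83.7 and 26.8 CPM (siFLI1) against 81.9, 90.2 and 147 CPM (siControl). Its value in siFLI1 replicate 3 came from 10 counts, and its log2 fold change of −0.11 ± 0.45 turned to 0.25 without that library. The read-through row HNRNPUL2-BSCL2 overlaps HNRNPUL2 and BSCL2 on the same strand and was at 0.091 ± 0.30. Over all libraries it held 766 counts, the same total as the BSCL2 row, where HNRNPUL2 held 914. Its level therefore cannot be told from that of BSCL2, and it is counted with the HNRNP genes by symbol only. Reads of HNRNPUL2 could be shared with it too.

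The 5 members left out by the count filter were HNRNPA1L2, HNRNPCL1, HNRNPCL2, HNRNPCL3 and HNRNPCL4, copies of HNRNPA1 and HNRNPC. HNRNPA1L2 had 4, 0 and 1 counts in siFLI1 and 7, 8 and 1 in siControl, and HNRNPCL1 had 1, 1 and 0 and 3, 0 and 0. HNRNPCL2, HNRNPCL3 and HNRNPCL4 had 0 counts in all 6 libraries. These copies were at or near 0 where HNRNPC itself had 425, 300 and 95 counts in siFLI1 and 424, 401 and 254 in siControl. On the other strand, SRSF2 overlaps MFSD11, SRSF9 overlaps GATC, HNRNPK overlaps RMI1 and HNRNPH3 overlaps PBLD, and without strand in the counting these reads cannot be told apart.

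As a family, SRSF genes summed to 1987, 2216 and 2236 CPM in siFLI1 replicates 1, 2 and 3 and to 2190.2, 2441 and 2337 CPM in siControl replicates 1, 2 and 3. The groups overlapped, and the siFLI1 mean was 92.4% of that in siControl. HNRNP genes summed to 3906, 4134 and 4707 CPM in siFLI1 and 4073, 4949 and 4503 CPM in siControl, with a siFLI1 mean of 94.3%. The picture depends on the scale. As a share of all counts without TMM, SRSF genes took 0.188, 0.216 and 0.200% in siFLI1 and 0.266, 0.233 and 0.219% in siControl, and HNRNP genes took 0.369, 0.403 and 0.421% and 0.494, 0.472 and 0.422%. All siFLI1 libraries lay below all siControl libraries in both, but for HNRNP genes siFLI1 replicate 3 and siControl replicate 3 were nearly equal. The balance between the families does not depend on scaling, and the HNRNP to SRSF ratio was 1.97, 1.87 and 2.11 in siFLI1 and 1.86, 2.03 and 1.93 in siControl. Its means of 1.98 ± 0.120 and 1.94 ± 0.0840 (SD, n = 3) differed by less than the spread between libraries. Members also varied little within a group: the median coefficient of variation over 3 libraries was 13.7% in siFLI1 and 16.6% in siControl for SRSF genes, and 17.1% and 14.8% for HNRNP genes, against 31.3% and 29.4% for all genes tested, which include many with fewer counts.

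**Figure D5:**
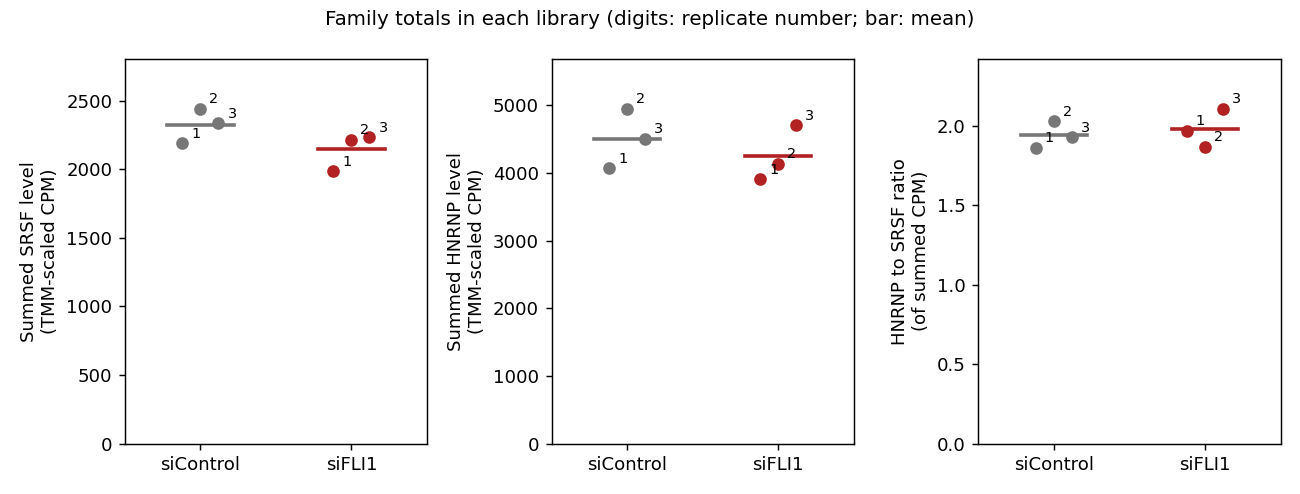
Summed TMM-scaled CPM of the SRSF genes (left) and HNRNP genes (middle) and their ratio (right) in each library, with siControl in grey, siFLI1 in red, replicate numbers beside the points and bars at the mean of 3. The ratio lies between 1.86 and 2.11 in all 6 libraries.

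FLI1 and the fusion bind DNA through an ETS domain that recognises a GGAA core, so the 250 bases upstream of each start were searched for CCGGAAGT, an ETS core with its flanks, on both strands (RefSeq promoters, GRCh38.p14). Of 35 members with a promoter in that table (SRSF2, HNRNPA1 and HNRNPCL3 have none there), 3 held it: SRSF5, SRSF4 and HNRNPD. Those letters occur in 606 of 7345 promoters of the tested genes (8.25%) and in 995 of 27305 of all promoters (3.64%), taking the first promoter listed for a gene. The 60 bases around each match are shown because they carry the only such letters among the members, in capitals, 5′ to 3′ on the strand of the gene, with ACTTCCGG where the match is on the opposite strand. They lie at chr14:69767059-69767118, plus strand, at chr1:29182091-29182150, minus strand and at chr4:82374142-82374201, minus strand.
SRSF5: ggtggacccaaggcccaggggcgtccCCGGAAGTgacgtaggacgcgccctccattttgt
SRSF4: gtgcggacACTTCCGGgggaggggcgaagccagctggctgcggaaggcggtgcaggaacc
HNRNPD: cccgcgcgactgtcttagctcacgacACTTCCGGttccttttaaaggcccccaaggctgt
The match starts 57 bases before the start of SRSF5, 242 before that of SRSF4 and 184 before that of HNRNPD, counted to the start that the RefSeq promoter table gives. The deposited rows of all 3 genes begin upstream of that start, and the SRSF5 match overlaps the first bases of its row. The log2 fold changes of SRSF5, SRSF4 and HNRNPD were −0.29 ± 0.26, −0.080 ± 0.33 and −0.19 ± 0.27, within the range of members without a match. A tandem repeat of the core, GGAAGGAA, was searched for in the same windows. It lay upstream of SRSF1 and, in a promoter other than the first listed, of SRSF7. By the first promoter listed, 1 of 11 SRSF and 0 of 24 HNRNP genes held it, against 232 of 7345 tested genes (3.16%). A match describes letters in this window and does not show binding.

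Many members have decay transcripts in the annotation, which gene-level counts cannot resolve. In GENCODE release 29, 12 of 12 SRSF genes and 14 of 21 tested HNRNP genes have at least 1 transcript marked for nonsense-mediated decay, against 44.6% of 8939 protein-coding genes tested. SRSF7 has 6 such transcripts of 12, SRSF1 has 3 of 9 and HNRNPU has 9 of 31. A shift between productive and decaying forms that left the total unchanged would not be seen in these values.

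Lists of genes that work with these families, chosen with earlier results of these data known, had no calls either. None of the 21 tested SR-related proteins and SR kinases, 12 hnRNP proteins and import factors with other symbols, 25 other splicing regulators, 40 spliceosome core proteins, 22 exon junction and export factors or 9 arginine methyltransferase genes passed an adjusted p of 0.05 in edgeR, DESeq2 or limma-voom. Of all genes tested 1.45% passed in edgeR, and at that share no calls in lists of 9 to 40 genes do not set them apart from all genes. At an unadjusted p below 0.05 the lists had 0, 0, 1, 0, 1 and 0 higher and 0, 0, 2, 1, 1 and 1 lower genes, in that order, where 6.62% of all genes tested were higher and 4.13% lower. The lower genes were 8% of the other splicing regulators, 2.5% of the spliceosome core proteins, 4.55% of the exon junction and export factors and 11.1% of the methyltransferase genes (1 of 9), and the higher genes 4% of the other regulators and 4.55% of the exon junction and export factors. Their median log2 fold changes were −0.087, −0.15, −0.13, −0.17, −0.23 and −0.45, all below the 0.0052 of all genes tested.

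Of the kinases that phosphorylate the SR tail, CLK1 was nearest the threshold, at 41.4, 101 and 91.0 CPM (siFLI1) against 61.9, 51.5 and 27.3 CPM (siControl), with overlapping groups and a log2 fold change of 0.69 ± 0.39 (edgeR adjusted p = 0.580). PCBP2, the poly(C)-binding hnRNP E2, was lower in all siFLI1 libraries, with −0.43 ± 0.23, and TNPO1, the import receptor of hnRNP A1, had −0.38 ± 0.26. KHDRBS3 (SLM2), a STAR-family splicing regulator, had the smallest adjusted p of the lists, with 2, 4 and 0 counts in siFLI1 and 16, 18 and 23 in siControl, a log2 fold change of −2.93 ± 0.77 (edgeR adjusted p = 0.0909), and it passed with no low-count filter. MBNL2, a muscleblind protein, was higher in all siFLI1 libraries, at 1.23 ± 0.44, and RBM4 was lower in all, at −0.65 ± 0.27. In the decay and export list SMG1, the kinase that phosphorylates UPF1 in nonsense-mediated decay, was at 67.1, 73.7 and 53.6 CPM (siFLI1) against 38.2, 29.3 and 27.3 CPM (siControl), with 1.05 ± 0.31 (edgeR adjusted p = 0.152). SMG1 has near-identical pseudogene copies, so its reads could be shared. PRPF19, the ubiquitin ligase of the spliceosome, had −0.61 ± 0.27, and PRMT5, which methylates Sm and hnRNP proteins, had −0.67 ± 0.29; both were lower in all siFLI1 libraries and neither passed (edgeR adjusted p = 0.435 and 0.421).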

How the data were processed

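RNA of A673 cells was read at the 3' ends of polyadenylated molecules with a bulk version of MARS-seq, per the labels' protocols. The authors deposited 1 table of raw counts summed over the exons of each gene, each gene being represented by a single RefSeq accession. Per the submitters' processing notes, bcl2fastq, HISAT 0.1.5, HOMER and hg38 were used, and their roles are not stated there. Collapsing of molecular barcodes and use of strand are not given in the sources used here. Groups and replicate numbers come from the sample titles. Separate cultures are not mentioned in the labels, and the spread behind each p-value may therefore be technical.

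All 27234 rows named a gene. Genes were kept by filterByExpr (minimum count 10, minimum total 15), which left 9420, scaled by TMM and compared by the two-sided quasi-likelihood test of edgeR 4.0.16 in R 4.3.3 (robust glmQLFit, then glmQLFTest on the group), with Benjamini-Hochberg adjustment over all 9420. The F statistic of that test gave the SE and the 95% interval. The fit was tested on simulated data, in which 95 tested genes were set to differ 2-fold and 95 to differ 4-fold between the groups. Of these, 6.32% and 73.7% passed the adjusted threshold, in that order, and 9 of the 85 calls were false. Most genes set to differ 2-fold were therefore not called at this threshold. Alternatives were scaling by upper quartile, by total counts or by DESeq2 size factors, a filter of 5 CPM in 3 libraries or no low-count filter, DESeq2 1.42.0, limma-voom (limma 3.58.1), a replicate block, leaving out each library, and leaving out siFLI1 replicate 3 with siControl replicate 1. Promoters are from RefSeq (GRCh38.p14) and transcript types from GENCODE release 29. The members, the lists and the libraries left out together were chosen with earlier results of these data known. Values in every library are given for members at an unadjusted p below 0.05, for the 4 SRSF and 6 HNRNP genes with the highest mean CPM, for members at a log2 fold change of at least 0.5 in size whose groups do not overlap, and for FLI1. Other members printed by library were chosen after their values were seen. From each other list up to 4 genes with the smallest p are named, except 1 that is not reported here.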

Additional observations from a re-analysis of the deposited data

How the results depend on the processing

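The count of 0 members past the adjusted threshold held in all 15 alternatives, and HNRNPA1 was lower at an unadjusted p below 0.05 in each of them. The count of members at that unadjusted level was 2 with DESeq2 size factors, total counts or upper quartile scaling, where HNRNPM joined HNRNPA1. It was 3 without both siFLI1 replicate 3 and siControl replicate 1, where HNRNPM and HNRNPF joined, and 1 to 2 over the fits that left out 1 library (HNRNPL joined without siFLI1 replicate 2 and HNRNPM without siControl replicate 1). The SRSF median was −0.26 under total counts and −0.17 to −0.027 without 1 library, nearest 0 without siControl replicate 1. The HNRNP median was −0.24 without both libraries and −0.19 to −0.032 without 1 library, nearest 0 without siFLI1 replicate 1. The count of all genes past the threshold was 368 with no low-count filter and 65 to 126 without 1 library. With the replicate number as a block (replicate block) it was 101, and 0 members passed. Same-numbered libraries did not deviate together (correlations −0.047 to −0.012), so the numbers were not taken to pair libraries.

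Members whose small, uncalled log2 fold change turned sign were HNRNPUL2-BSCL2 (−0.042), SRSF10 (−0.036) and HNRNPC (−0.11) under total counts, HNRNPC (−0.017) with upper quartile scaling, HNRNPC (−0.037) with no low-count filter, HNRNPC (−0.020) in DESeq2, HNRNPAB (0.089) and SRSF4 (0.0035) in limma-voom and HNRNPAB (0.095) with the replicate block. Without both siFLI1 replicate 3 and siControl replicate 1 they were HNRNPUL1 (−0.019), SRSF10 (−0.037), HNRNPDL (−0.080), SRSF6 (0.18), HNRNPC (−0.059), HNRNPUL2 (0.087), SRSF4 (0.35) and HNRNPA0 (0.17). Over the fits without 1 library those that turned ran as follows on the log2 scale: HNRNPA0 (−0.44 to 0.15), HNRNPA2B1 (−0.16 to 0.079), HNRNPA3 (−0.23 to 0.025), HNRNPAB (−0.36 to 0.19), HNRNPC (−0.052 to 0.11), HNRNPH3 (−0.27 to 0.25), HNRNPLL (−0.12 to 0.068), HNRNPR (−0.37 to 0.15), HNRNPUL1 (−0.042 to 0.56), HNRNPUL2 (−0.82 to 0.25), HNRNPUL2-BSCL2 (−0.21 to 0.25), SRSF10 (−0.029 to 0.26), SRSF4 (−0.26 to 0.19) and SRSF6 (−0.26 to 0.18). The cause was not tested. The other 18 tested members kept their sign in all 15 alternatives. At this depth the 95% interval of SRSF12, the tested member with the fewest counts, ran from −0.55 to 2.33 on the log2 scale.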
